A study of Homo sapiens with 8 samples.

Results

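The RNAs described here are 72 small nucleolar and Cajal body RNAs of RPMI-8402, an established human T-cell acute lymphoblastic leukaemia line. They were chosen by their summed counts: all rows of the deposited table of 61228 gene symbols that begin with SNORA, SNORD or SCARNA and whose raw counts, summed over 8 clones, came to at least 80. The rule gave 29 of 152 SNORA rows, 36 of 296 SNORD rows and 7 of 24 SCARNA rows, and these classes were compared with each other. The study asked what loss of NKX2-1, a transcription factor of the homeobox kind, does to the transcriptome. It had 4 NKX2-1 knockout (KO) clones, titled C12, C15, S04 and S36, and 4 wild-type (WT) clones, titled WT10, WT13, WT28 and WT30, all of the same untreated line. The labels say neither what the letters C and S stand for nor what edit was made, and every group is made of clones of 1 line, so a difference between groups is a difference between these clones.

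Small nucleolar RNAs sit in the nucleolus with a fixed set of proteins and pair with ribosomal RNA to choose the bases that are modified. The box C/D kind, named SNORD, guides methylation of the ribose, and the box H/ACA kind, named SNORA, guides the change of uridine to pseudouridine. The small Cajal body RNAs, named SCARNA, do the same for the RNAs of the spliceosome in another nuclear body. In human cells most of them are cut out of introns of a host gene after splicing, end without a poly(A) tail and are held by their proteins, so a small RNA and its host's messenger RNA come from the same transcript. A few members of the class, U3 and U13 among them, are transcribed on their own and serve cleavage or acetylation of ribosomal RNA.

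The sequences of the members on which the results turn are given first, as GENCODE release 29 lists them on GRCh38, 5′ to 3′. In SNORD sequences the capitals mark a C box (ATGATGA or GTGATGA, starting within the first 20 bases) and a D box (CTGA, within the last 15). In SNORA and SCARNA sequences they mark ACA within the last 8 bases. Only the transcribed strand was searched. The first 4 are the members that differed between C and S clones, and SNORD104 is the SNORD with the most counts in WT clones.

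SNORD26 (chr11:62855292-62855366, minus strand): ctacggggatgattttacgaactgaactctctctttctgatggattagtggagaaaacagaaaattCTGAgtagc

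SNORD8 (chr14:21397292-21397401, minus strand): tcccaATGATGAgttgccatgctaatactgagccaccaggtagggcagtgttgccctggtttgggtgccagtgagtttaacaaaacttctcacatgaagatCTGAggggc

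SNORA12 (chr10:100237156-100237302, minus strand): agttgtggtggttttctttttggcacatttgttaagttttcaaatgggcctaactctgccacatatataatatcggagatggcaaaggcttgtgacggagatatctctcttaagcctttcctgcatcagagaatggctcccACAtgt

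SNORA32 (chr11:93730979-93731099, minus strand): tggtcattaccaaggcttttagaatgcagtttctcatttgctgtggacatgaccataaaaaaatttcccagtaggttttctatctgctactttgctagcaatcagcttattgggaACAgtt

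SNORD104 (chr17:64146083-64146152, plus strand): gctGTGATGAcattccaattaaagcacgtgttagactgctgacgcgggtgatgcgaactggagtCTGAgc

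SNORA61 and SNORD99 lie in introns of the same host, SNHG12, SNORA61 with a fold change above 0 and SNORD99 with one below it.

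SNORA61 (chr1:28579764-28579893, minus strand): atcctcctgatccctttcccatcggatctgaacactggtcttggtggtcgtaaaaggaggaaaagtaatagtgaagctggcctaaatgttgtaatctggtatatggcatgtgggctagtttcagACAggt

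SNORD99 (chr1:28578749-28578822, minus strand): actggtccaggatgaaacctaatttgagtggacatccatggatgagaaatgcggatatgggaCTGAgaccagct

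SCARNA18 and SCARNA18B are near copies on different chromosomes, and 3 copies of SNORD14 lie within HSPA8.

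SCARNA18 (chr5:83064204-83064337, minus strand): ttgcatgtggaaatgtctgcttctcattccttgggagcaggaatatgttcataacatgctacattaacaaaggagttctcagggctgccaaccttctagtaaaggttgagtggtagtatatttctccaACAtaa

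SCARNA18B (chr1:193057281-193057415, minus strand): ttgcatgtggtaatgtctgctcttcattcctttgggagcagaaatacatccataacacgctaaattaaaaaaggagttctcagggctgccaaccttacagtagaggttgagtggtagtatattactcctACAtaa

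SNORD14C (chr11:123059335-123059422, minus strand): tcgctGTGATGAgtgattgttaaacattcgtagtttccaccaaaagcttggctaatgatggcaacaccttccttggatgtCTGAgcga

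SNORD14D (chr11:123058909-123058995, minus strand): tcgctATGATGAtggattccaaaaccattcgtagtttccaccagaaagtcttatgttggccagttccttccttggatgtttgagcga

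SNORD14E (chr11:123058077-123058161, minus strand): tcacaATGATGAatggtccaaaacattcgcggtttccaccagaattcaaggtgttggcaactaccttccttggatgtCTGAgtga

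Of the 72 members, 71 were found in this release, and SNORD38C was not. Both boxes were present in 21 of 35 SNORD members (60.0%), against 64.0% of the 278 SNORD genes of the release. ACA near the 3′ end was present in 25 of 29 SNORA members (86.2%), against 89.8% of 147 SNORA genes, and in 5 of 7 SCARNA members (71.4%), against 72.0% of 25. SNORD26 above shows the D box letters alone, and SNORD14D the C box letters alone. Member length had a median of 135 bases for SNORA, 84 for SNORD and 139 for SCARNA. A match is a run of letters and not a shown binding site.

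The members were a small part of each library, and the rest of their families was nearly silent in the table. The 472 rows of these classes held 61748 counts, of which the 72 members held 58264 (94.4%), and 247 rows were at 0 in every clone. SNORD54 (80 counts) and SNORD13E (82) lay just inside the minimum, and SNORA9B (79), SNORA71D and SNORA80B (75 each) just outside. SNORD118, the U8 RNA, SNORD22 and SCARNA2, SCARNA5, SCARNA6 and SCARNA13 were listed at 0 in all clones. SNORA73A, which takes part in cleavage of the ribosomal precursor, had 55 counts in all, SNORD14B had 10 and SNORD3C, a copy of U3, had 5. SCARNA10 and SCARNA17 had 1 count each. All 48 copies of SNORD115, 9 of SNORD113 and 30 of SNORD114, which come from imprinted clusters, were at 0, and the 30 copies of SNORD116 held 8 counts together. The authors' table gives no annotation or strand setting, so a value of 0 says only that no count was assigned.

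Depth and cell identity bear on all values below. KO libraries held 25423215 (C12), 2730285 (C15), 15340134 (S04) and 12344549 (S36) counts, and WT libraries 18453947 to 22916424. A level of 3 counts, taken as the floor per library, was 1.21 CPM (counts scaled to a common library size with TMM factors) in C15, and 0.116 to 0.229 CPM in the other 7 clones. Floors cover counting error only. In C15, 6 members were at 0 and most others rested on fewer than 20 counts. NKX2-1 itself was at 71.9 CPM (C12), 11.3 (C15), 83.5 (S04) and 33.3 (S36), against 53.5 to 63.1 CPM in WT clones, and a gene-level count cannot show an edit, so it does not check the labels. Of 19 T lineage markers 15 were high enough to test, 11 of them with fold changes below 0 and a median of -0.33 on the log2 scale, and 0 were called by edgeR at an adjusted p of 0.05 in KO against WT (0.316% of genes). CD3D was at 494 to 625 CPM in KO clones and 455 to 608 in WT clones. CD5 was at 37.1 to 71.1 CPM in KO clones and 84.6 to 116 in WT clones, and CD7 at 1.30 to 3.80 CPM in KO clones and 5.58 to 6.53 in WT clones, both without overlap (5.62% of genes were lower in KO clones without overlap). TRBC1 was at 209 CPM (C12), 18.5 (C15), 266 (S04) and 36.5 (S36), against 162 to 228 CPM in WT clones. C12 lay within the WT range, S04 above it, and C15 and S36 below it. In S clones against WT 1 of the 15 markers, CD5, was called lower (7.36% of all genes), by 0.67 on the log2 scale. The part of these differences in the results below was not tested. CD4, CD8A and ZAP70 were below 1 CPM in all clones. Of other lineages, 3 of 5 B cell markers, 0 of 5 myeloid, 0 of 4 red cell and 1 of 6 fibroblast or epithelial markers were high enough to test.

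As a share of each library, the members stood above every WT clone in 3 of the 4 KO clones. All members together took 0.0271% (C12), 0.0485% (C15), 0.0851% (S04) and 0.110% (S36) of counts, against 0.0278% (WT10), 0.0302% (WT13), 0.0239% (WT28) and 0.0306% (WT30). C12 lay inside the WT range, and the S-named clones were highest. The SNORD class averaged 0.0420% ± 0.0260 in KO clones and 0.0149% ± 0.00201 in WT clones (SD, n = 4 each), a ratio of 2.82. The SNORA class averaged 0.0205% ± 0.0115 in KO clones and 0.00920% ± 0.000657 in WT clones, a ratio of 2.22. The SCARNA class averaged 0.00532% ± 0.00183 in KO clones and 0.00401% ± 0.000817 in WT clones, a ratio of 1.32. In S clones alone the ratios to WT were 4.26 for SNORD, 3.20 for SNORA and 1.18 for SCARNA, and in C clones alone 1.38, 1.24 and 1.47 in that order. A share per class has no test here, and bulk RNA cannot tell more cells with an RNA from more of it per cell.

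**Figure D1:**
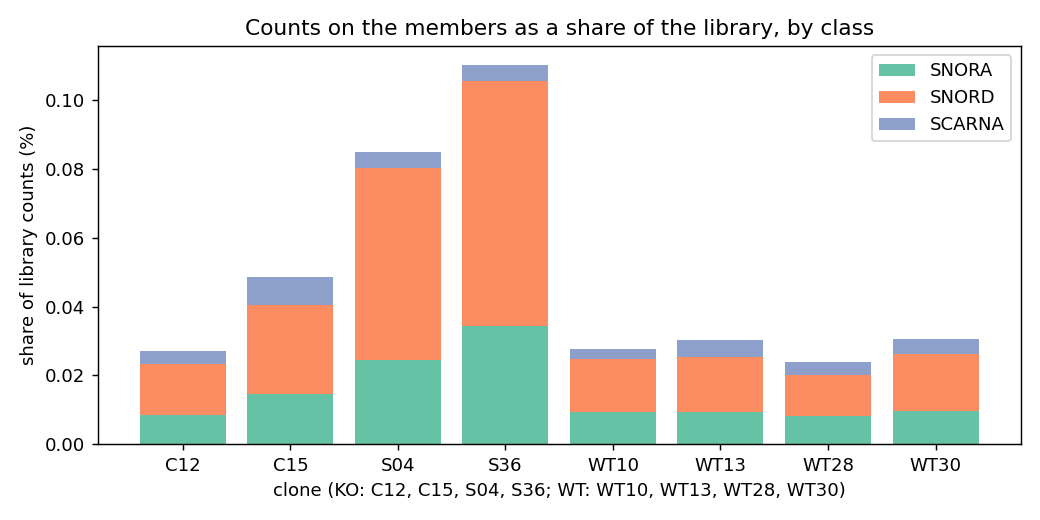
Stacked bars give, for each clone, the share of library counts (%) on SNORD, SNORA and SCARNA members. C12 (0.0271%) sits among the WT clones (0.0239% to 0.0306%), while C15, S04 and S36 stand above them.

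A few RNAs made up much of this. SNORD26, SNORD13 and SNORA12 together held 22.3% (C12), 29.6% (C15), 53.7% (S04) and 54.5% (S36) of member counts, against 20.1% to 26.1% in WT clones. SNORD104, which guides methylation of the large-subunit ribosomal RNA, was the SNORD with the most counts in C12 and in every WT clone, SNORD13 in C15, and SNORD26 in both S clones. SNORA24, a guide for the small-subunit ribosomal RNA, led its class in both C clones and in every WT clone, and SNORA12 in both S clones. SCARNA9, a guide for the U2 spliceosomal RNA, led its class in all 8 clones, with 42.1% to 81.2% of SCARNA member counts.

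For KO against WT, no single member passed the test. Of the 72 members 68 passed the filter on low counts and were tested, the others being SNORA80E, SNORA79, SNORD58A and SNORD17, and the two-sided edgeR quasi-likelihood test called 0 of the 68 at a Benjamini-Hochberg adjusted p of 0.05, against 45 of 14243 genes (0.316%). DESeq2 called 12, all higher in KO clones, against 3.66% of genes, and limma-voom called 0, against 0.66%. At an unadjusted p under 0.05 the edgeR test had 29 members, all higher in KO clones, which is 42.6% of those tested, against 8.47% of all genes higher and 6.99% lower at that p. The levels were used to choose the members, and so these counts are a description of them. The median log2 fold change was 0.97 over 27 SNORA members (24 above 0), 0.89 over 34 SNORD members (28 above 0) and 0.44 over 7 SCARNA members (all 7 above 0), beside 0.02 over all genes tested. The range ran from -0.11 to 2.30 for SNORA, from -0.92 to 2.94 for SNORD and from 0.01 to 1.56 for SCARNA.

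Clone by clone, the members did not move as 1 block. The median over members of log2 CPM minus the WT mean was -0.04 (C12), 0.86 (C15), 1.06 (S04) and 1.25 (S36), and -0.05 to 0.11 in WT clones. Above every WT clone lay 13 of 68 members in C12 (24.9% of all genes), 43 in C15 (35.3%), 50 in S04 (37.1%) and 51 in S36 (36.7%). C12 had 16 members below every WT clone (23.8% of all genes), C15 had 14 (41.9%), S04 had 7 (36.8%) and S36 had 5 (36.5%). In the SNORA class 23 of 27 members in S04 and 24 in S36 were above all WT clones, in the SNORD class 23 and 24 of 34, and in the SCARNA class 4 and 3 of 7. The groups did not overlap for 10 members, all higher in KO clones (4.44% of genes), and for 0 in the other direction (5.62%). These 10 were SNORA61, SNORA33, SNORA23, SNORA21, SNORD46, SNORD21, SNORD5, SNORD14E, SNORD16 and SNORD68. Of these, SNORD21, SNORD5 and SNORD14E met the minimum for entry only with the counts of the S clones. SNORA21 had 61 of its 223 counts in WT clones, so it met the minimum only with counts of KO clones. The place of these RNAs among the 10 may thus follow in part from the choice of members. The counts above every WT clone in S04 and S36 also include such members.

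**Figure D2:**
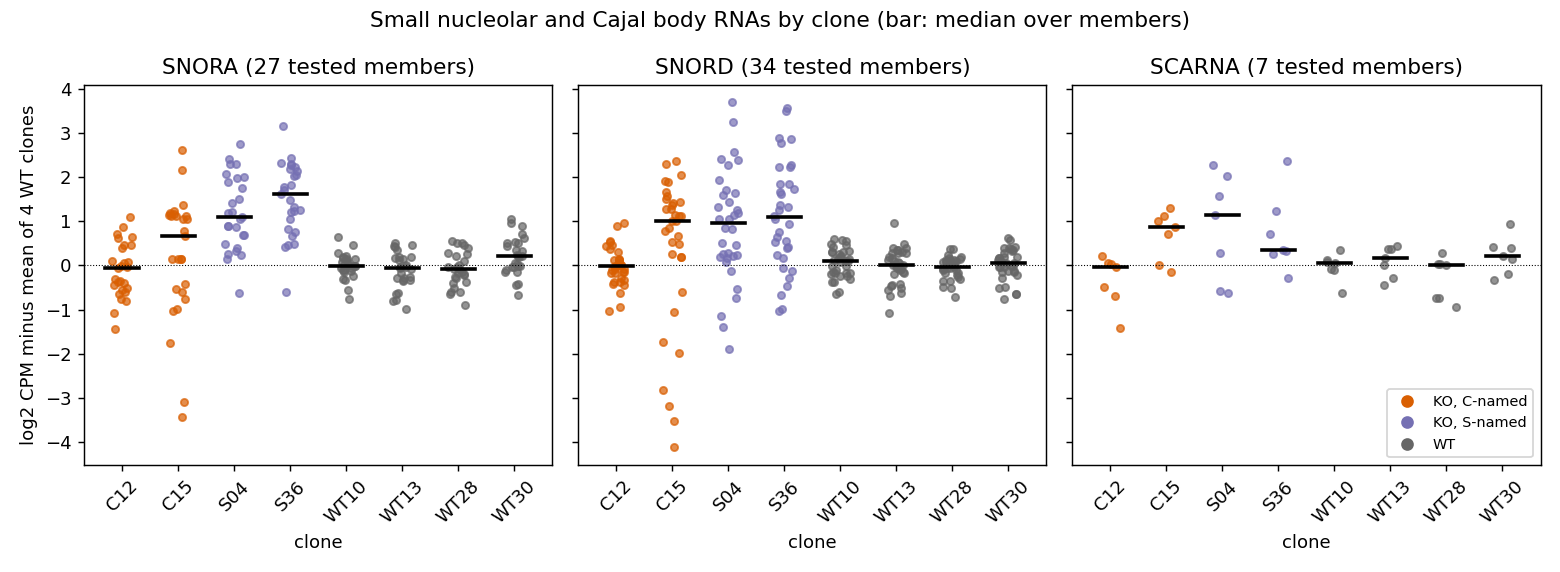
Each point is a tested member in a clone, as log2 CPM minus the mean of the 4 WT clones, by class, and the bar is the median over members. Medians over all members are -0.04 (C12), 0.86 (C15), 1.06 (S04) and 1.25 (S36), and the low points in C15 are members at 0 or a few counts.

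Among box C/D members, SNORD26 had the most extreme level. SNORD26, a guide for methylation of the large-subunit ribosomal RNA held in an intron of SNHG1, was at 22.4 CPM (C12), 60.9 (C15), 225 (S04) and 279 (S36), against 27.6 (WT10), 28.8 (WT13), 16.6 (WT28) and 23.5 (WT30). Both S clones stood far above the other 6, C15 was above and C12 within the WT range. Its log2 fold change for KO over WT was 2.61 (SE 0.63, adjusted p = 0.116 by edgeR). SNORD13, the independently transcribed U13 that guides acetylation of the small-subunit ribosomal RNA, was at 24.6 CPM (C12), 77.8 (C15), 127 (S04) and 192 (S36), against 27.5 (WT10), 27.1 (WT13), 18.5 (WT28) and 33.5 (WT30). C12 lay within the WT range and the other 3 KO clones above it, and the log2 fold change was 1.99 (SE 0.48, adjusted p = 0.116 by edgeR). SNORD87 was at 4.20 CPM (C12), 10.9 (C15), 20.5 (S04) and 16.3 (S36), against 2.46 to 5.10 CPM in WT clones, again with C12 inside the WT range, and its log2 fold change was 1.89 (SE 0.44, adjusted p = 0.112 by edgeR). SNORD68, an intronic RNA of RPL13, was at 2.85 CPM (C12), 3.22 (C15), 5.72 (S04) and 5.34 (S36), against 0.850 to 1.77 CPM in WT clones, where the groups did not overlap, and its log2 fold change was 1.58 (SE 0.35, adjusted p = 0.0961 by edgeR).

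For SNORD104, the abundant box C/D RNA, the groups overlapped. It was at 45.2 CPM (C12), 53.2 (C15), 32.0 (S04) and 38.1 (S36), against 40.2 (WT10), 56.1 (WT13), 36.3 (WT28) and 55.9 (WT30), with S04 below every WT clone and the other 3 KO clones within their range, and a log2 fold change of -0.18 (SE 0.20, adjusted p = 0.725 by edgeR). SNORD3A, the U3 RNA of the first cleavages of the ribosomal precursor, was at 1.31 CPM (C12), 2.42 (C15), 1.99 (S04) and 4.04 (S36), against 1.43 to 1.89 CPM in WT clones, with C12 below every WT clone and the other 3 KO clones above, and its log2 fold change was 0.55 (SE 0.37, adjusted p = 0.513 by edgeR). SNORD99 and SNORD14A had the lowest fold changes of the class. SNORD99 was at 1.46 CPM (C12), 0 (C15), 0.783 (S04) and 1.14 (S36), against 1.43 to 2.67 CPM in WT clones, and its log2 fold change was -0.92 (SE 0.45, adjusted p = 0.359 by edgeR). SNORD14A, held in RPS13, was at 1.12 CPM (C12), 0 (C15), 1.08 (S04) and 0.534 (S36), against 0.665 to 2.46 CPM in WT clones, at -0.69 (SE 0.55, adjusted p = 0.590 by edgeR) on the log2 scale. Both had 0 counts in C15, where that allows up to 1.21 CPM. At the minimum for entry, SNORD54 had a log2 fold change of 0.64 (SE 0.54, adjusted p = 0.607 by edgeR) and SNORD13E, listed as a U13 copy within DENND4A, of -0.44 (SE 0.53, adjusted p = 0.734 by edgeR).

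SNORD17 was too low in most clones to be tested, and 1 clone held most of it. It had 6 (C12), 4 (C15), 8 (S04) and 82 (S36) counts, and 1 to 3 in each WT clone. That is 0.231 CPM (C12), 1.61 (C15), 0.482 (S04) and 6.25 (S36), and at most 0.141 CPM in a WT clone. Of its 107 counts 17 came from the 6 clones other than S04 and S36, under the minimum for entry. SNORD17 is thus a member only through the S clones, and its level in S36 is a description. Its host SNX5, a sorting nexin gene, was at 141 CPM in S36 and 63.1 to 96.7 in the other KO clones, against 93.1 to 104 CPM in WT clones.

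Among box H/ACA members, the lowest p belonged to SNORA61, in SNHG12. It was at 6.55 CPM (C12), 8.87 (C15), 19.8 (S04) and 18.4 (S36), against 3.93 (WT10), 3.93 (WT13), 5.42 (WT28) and 2.84 (WT30). All 4 KO clones exceeded all WT clones, and the log2 fold change was 1.75 (SE 0.37, adjusted p = 0.0885 by edgeR). SNORA21, in RPL23, was at 1.58 CPM (C12), 1.61 (C15), 4.10 (S04) and 3.74 (S36), against 0.425 to 1.11 CPM in WT clones, with no overlap and a log2 fold change of 1.96 (SE 0.45, adjusted p = 0.103 by edgeR). Of its 223 counts 61 came from WT clones, under the minimum for entry. Its difference may thus follow in part from the choice of members. SNORA23, in the importin gene IPO7, was at 1.73 CPM (C12), 8.06 (C15), 5.12 (S04) and 4.58 (S36), against 1.01 to 1.55 CPM in WT clones, also with no overlap, at 1.86 (SE 0.43, adjusted p = 0.104 by edgeR). SNORA33, in RPS12, was at 5.32 CPM (C12), 6.04 (C15), 6.57 (S04) and 4.58 (S36), against 2.68 to 3.19 CPM in WT clones, and its log2 fold change was 0.97 (SE 0.23, adjusted p = 0.116 by edgeR). SNORA12, in CWF19L1, was at 12.2 CPM (C12), 19.3 (C15), 70.3 (S04) and 95.2 (S36), against 16.1 (WT10), 22.4 (WT13), 14.4 (WT28) and 18.1 (WT30). Here the S clones alone were high, C12 was below every WT clone and C15 within their range, and the log2 fold change for KO over WT was 1.5 (SE 0.53, adjusted p = 0.217 by edgeR).

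SNORA24, the most abundant SNORA in WT clones, was at 21.5 CPM (C12), 63.3 (C15), 33.5 (S04) and 67.4 (S36), against 23.9 to 30.3 CPM in WT clones, with C12 below and the other 3 KO clones above every WT clone, and its log2 fold change was 0.77 (SE 0.31, adjusted p = 0.276 by edgeR). SNORA57 was at 8.67 CPM (C12), 14.5 (C15), 16.6 (S04) and 30.0 (S36), against 8.05 to 10.7 CPM in WT clones, at 0.95 (SE 0.32, adjusted p = 0.205 by edgeR). SNORA72 and SNORA73B had the lowest fold changes of the class, -0.11 (SE 0.39, adjusted p = 0.929 by edgeR) for SNORA72 and -0.09 (SE 0.63, adjusted p = 0.970 by edgeR) for SNORA73B. SNORA73B, which takes part in cleavage of the ribosomal precursor and lies in SNHG3, had 0 counts in C15 and was at 0.347 CPM in C12, 1.99 in S04 and 0.534 in S36, against 0.621 to 1.32 CPM in WT clones. Its sign, that of SNORA72 and those of SCARNA9, SCARNA18B and SCARNA7 turned when 1 clone was left out.

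**Figure D3:**
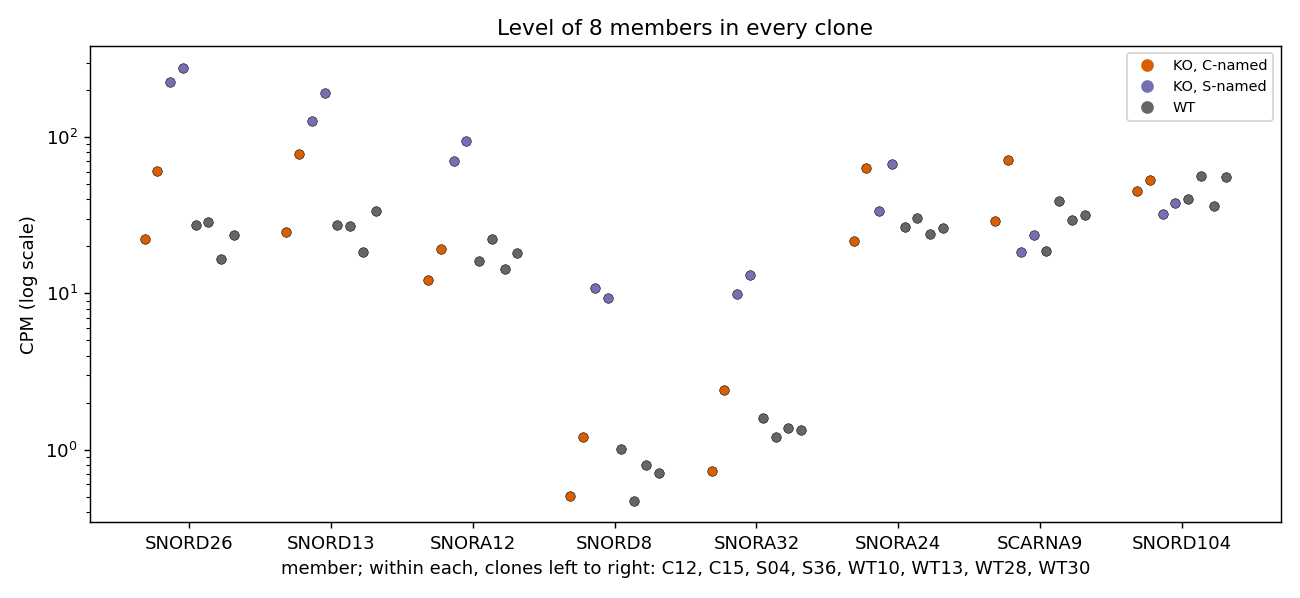
The points give the level (CPM, log scale) of 8 members in each clone, KO clones in orange (C) and purple (S) and WT clones in grey. In SNORD26, SNORA12, SNORD8 and SNORA32, the members called between C and S clones, the S clones stand apart, while SNORD104 and SCARNA9 show overlap of the groups. SNORD8 met the minimum for entry only with the counts of the S clones.

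The SCARNA class was mixed. SCARNA9 was at 29.1 CPM (C12), 71.3 (C15), 18.4 (S04) and 23.6 (S36), against 18.6 (WT10), 39.2 (WT13), 29.3 (WT28) and 31.6 (WT30). C15 was the highest and S04 the lowest of the 8, the groups overlapped, and the log2 fold change was 0.21 (SE 0.39, adjusted p = 0.838 by edgeR). SCARNA18, in TMEM167A, was at 1.23 CPM (C12), 1.21 (C15), 5.18 (S04) and 6.64 (S36), against 0.565 to 1.64 CPM in WT clones, with both S clones above all others, at 1.56 (SE 0.56, adjusted p = 0.222 by edgeR). SCARNA21, in CHD3, was at 0.732 CPM (C12), 1.21 (C15), 2.05 (S04) and 1.60 (S36), against 0.419 to 0.842 CPM in WT clones, at 1.15 (SE 0.42, adjusted p = 0.236 by edgeR). SCARNA12, a guide for the U5 spliceosomal RNA in PHB2, had a log2 fold change of 0.44 (SE 0.39, adjusted p = 0.628 by edgeR), SCARNA20 of 1.07 (SE 0.63, adjusted p = 0.450 by edgeR) and SCARNA7, a guide for the U1 spliceosomal RNA, of 0.01 (SE 0.48, adjusted p = 0.993 by edgeR). SCARNA18B was at 2.66 CPM (C12), 5.64 (C15), 1.81 (S04) and 3.28 (S36), against 2.39 to 3.34 CPM in WT clones, at 0.14 (SE 0.34, adjusted p = 0.879 by edgeR).

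Set against WT clones without the C clones, the 2 S clones gave many calls. The fit of S04 and S36 against the 4 WT clones tested 71 members and called 31, all higher in S clones (7.17% of 15219 genes were called higher, 14.5% in either direction). They were 16 of 29 SNORA, 13 of 35 SNORD and 2 of 7 SCARNA members, and the median log2 fold changes were 1.59, 1.13 and 0.90 in that order, beside 0.02 over all genes. SNORD26 rose by 3.37 (SE 0.21, adjusted p = 0.000548 by edgeR), averaging 252 ± 38.2 CPM in S clones and 24.1 ± 5.49 CPM in WT clones (SD, n = 2 and 4). SNORA32 rose by 3.05 (SE 0.24, adjusted p = 0.000852 by edgeR), SNORD13 by 2.57 (SE 0.23, adjusted p = 0.00127 by edgeR) and SNORA12 by 2.21 (SE 0.20, adjusted p = 0.00120 by edgeR). SNORD58A, in RPL17, was left out of the fit over 8 clones for its low counts and had 71 and 54 counts in S04 and S36, against 2 to 10 in WT clones. Of its 155 counts 30 came from the 6 other clones, so it is a member only through the clones where it is high, and its difference is a description. SCARNA18 (2.19) and SCARNA21 (1.51) were the SCARNA members called.

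The minimum of 80 counts bears on these calls. Without the counts of S04 and S36, 23 of the 72 members would be under it, 8 SNORA, 14 SNORD and SCARNA21, and 8 of the 31 calls in S clones are among them, SNORD8, SNORD58A, SNORD58C, SNORD14D, SNORD45A, SNORA18, SNORA79 and SCARNA21. Their calls in S clones follow in part from the choice of members. The other 49 members reached 80 counts in C and WT clones alone. Of these, 23 were called in S clones against WT, all higher, among them 14 of 21 SNORA, 8 of 22 SNORD and 1 of 6 SCARNA members, with median log2 fold changes of 1.53, 0.86 and 0.60 in that order (7.17% of all genes were called higher).

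The 2 C clones against WT called 0 of 69 members (0.0395% of 15180 genes), with 7 at an unadjusted p under 0.05, 6 of them higher (3.86% of genes) and 1 lower (6.4%). The medians were 0.01 for SNORA, 0.13 for SNORD and -0.07 for SCARNA. C15 is the shallowest library by far and C12 the deepest, so the C pair joins clones of unequal precision. The count of calls in the fit over all KO clones was 17 without C12 (3.13% of genes) and 0 without any other single clone.

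The direct comparison of C and S clones, in a fit with WT clones as a further group, called 4 of 68 members, all lower in C clones (0.358% of 14243 genes were called, 0.133% lower in C). SNORD8, a guide for the U6 spliceosomal RNA within CHD8, was at 0.501 CPM in C12 and 1.21 in C15 (13 and 3 counts), and 10.8 in S04 and 9.38 in S36 (179 and 123 counts), with 0.471 to 1.01 CPM in WT clones. Of its 379 counts 77 came from the 6 clones other than S04 and S36, under the minimum for entry, so it is a member only through the S clones, and its C over S log2 fold change of -3.99 is a description and no support. The other 3 called members passed the minimum without the S clones. SNORA32, in TAF1D, was at 0.732 CPM in C12 and 2.42 in C15, and 9.88 in S04 and 13.2 in S36, with 1.21 to 1.59 CPM in WT clones, a log2 fold change of -3.37 (SE 0.52, adjusted p = 0.0490 by edgeR). SNORA12 differed by -2.46 (SE 0.30, adjusted p = 0.0311 by edgeR), averaging 15.8 ± 5.02 CPM in C clones and 82.8 ± 17.6 CPM in S clones (SD, n = 2 each). SNORD26 differed by -2.67 (SE 0.43, adjusted p = 0.0490 by edgeR), averaging 41.6 ± 27.2 CPM in C clones and 252 ± 38.2 CPM in S clones. All 4 calls were lost when any 1 WT clone was left out, where the fit called 0 genes in all.

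At an unadjusted p under 0.05, 27 of 68 members were lower in C clones (8.19% of genes) and 1 was higher (8.94%). SCARNA9 was the exception, at 1.21 (SE 0.43, adjusted p = 0.202 by edgeR). Both S clones stood above the other 6 clones for 28 members (12.4% of genes), 14 SNORA, 11 SNORD and 3 SCARNA, and below them for 0 (11.5%). Of the 28, SNORD45A, SNORA18, SNORA40, SNORD14D, SNORD8, SNORD58C and SCARNA21 met the minimum for entry only with the counts of the S clones. Their place among the 28 follows in part from the choice of members. The medians of C over S were -1.32 for SNORA, -0.66 for SNORD and -1.11 for SCARNA, beside -0.05 for all genes. Over the 49 members that met the minimum without the S clones, they were -1.32, -0.74 and -1.16 in that order. This comparison and that of S with WT share the S clones and are not separate evidence.

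Host genes and their small RNAs had different fold changes. A gene on the same strand spanned 68 members, and for 62 member and host pairs over 44 hosts both were tested in KO against WT. EIF4A1, which holds SNORA48, was listed at 0 in all clones and is not among them. The median log2 fold change was 1.00 for these members and -0.06 for their hosts, the member lay above its host in 55 of 62 pairs, and 0 hosts were called (0.316% of genes). Members, unlike hosts, were chosen by a minimum of counts that includes the KO clones. The gap to the hosts may thus follow in part from that choice. Over the 49 members that met the minimum without the S clones, with or without a host, the median was 0.77. Spearman's rho between member and host was 0.06 over the 62 pairs, a description only, since members of 1 host share it. In S clones against WT, 3 of 46 hosts were called higher and 10 lower (7.17% and 7.36% of genes). SNHG1, host of SNORD26, was at 466 CPM (C12), 874 (C15), 300.3 (S04) and 387 (S36), against 427 to 448 CPM in WT clones. The S clones that were highest for SNORD26 were thus lowest for SNHG1, whose S over WT log2 fold change was -0.36 (SE 0.13, adjusted p = 0.101 by edgeR).

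Other pairs parted further. SNHG12 fell in S clones by 0.94 on the log2 scale (SE 0.18, adjusted p = 0.0130 by edgeR) while SNORA61 in its introns rose by 2.23 (SE 0.25, adjusted p = 0.00275 by edgeR) and SNORA16A by 2.25 (SE 0.34, adjusted p = 0.00638 by edgeR). SNORD99, in the same host, was at -1.02 (SE 0.40, adjusted p = 0.123 by edgeR). SNHG6 fell at -1.21 (SE 0.28, adjusted p = 0.0264 by edgeR) and its SNORD87 rose by 2.38 (SE 0.30, adjusted p = 0.00379 by edgeR). RPS12 fell at -1.30 (SE 0.12, adjusted p = 0.00132 by edgeR) and its SNORA33 rose by 0.96 (SE 0.25, adjusted p = 0.0374 by edgeR). RPL13 fell at -0.92 (SE 0.20, adjusted p = 0.0216 by edgeR) and its SNORD68 rose by 1.91 (SE 0.32, adjusted p = 0.00923 by edgeR). For SNORD104 the order was the other way. Its host SNHG25 was at 6014 CPM in S36 and 1599 to 2046 in the other KO clones, against 1182 to 2226 CPM in WT clones, and the S over WT log2 fold change was 1.12 (SE 0.39, adjusted p = 0.0917 by edgeR) for SNHG25 and -0.44 (SE 0.21, adjusted p = 0.200 by edgeR) for SNORD104. Neither CHD8, host of SNORD8, at 0.11 (SE 0.11, adjusted p = 0.541 by edgeR), nor CWF19L1, host of SNORA12, at 0.29 (SE 0.17, adjusted p = 0.292 by edgeR), passed the test. SNORD43 and its host RPL3 were both called higher in S clones, at 1.61 (SE 0.34, adjusted p = 0.0188 by edgeR) and 1.14 (SE 0.14, adjusted p = 0.00383 by edgeR).

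**Figure D4:**
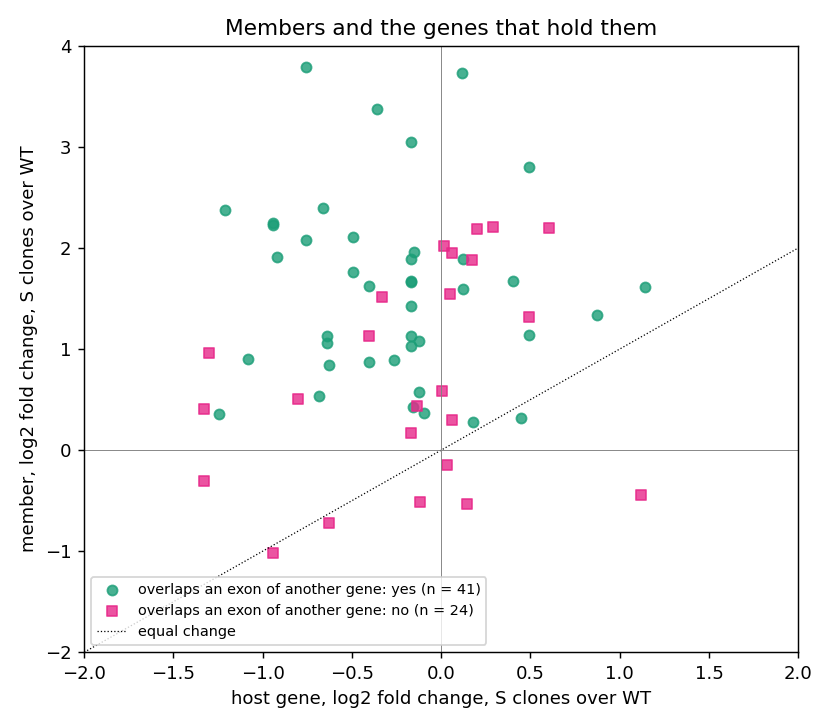
Each point is a member, with its host's log2 fold change (S clones over WT) on the horizontal axis and its own on the vertical axis, in green circles where it overlaps an annotated exon of another gene and in pink squares where it does not. Hosts lie around 0 (median -0.13) and members above the dotted line of equal change in 58 of 65 pairs. Members, unlike hosts, were chosen by a minimum of counts that includes the S clones.

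Small RNAs of the same host differed from each other. TAF1D, a gene for a subunit of an RNA polymerase I factor, holds 8 members. In log2 CPM minus the WT mean, averaged over S04 and S36, they ran from -0.43 for SNORD6 to 2.96 for SNORA32, with SNORA18 at 1.73, SNORA40 at 1.45, SNORA8 at 1.39, SNORD5 at 1.17, SNORA25 at 1.08 and SNORA1 at 1.06. Of these 8, SNORA1, SNORD5, SNORA18 and SNORA40 met the minimum for entry only with the counts of the S clones. Their levels in S clones thus follow in part from the choice of members. The S clones themselves parted at SNORD6, at -1.90 in S04 and 1.05 in S36. TAF1D was at -0.17 (SE 0.15, adjusted p = 0.493 by edgeR). Averaged over C12 and C15 the same 8 ran from -0.83 for SNORA8 to 1.59 for SNORD5. Within HSPA8, a chaperone gene, SNORD14D was at 2.63 in S clones, SNORD14C at 1.13 and SNORD14E at 1.09. SNORD14D and SNORD14C are identical at 78.5% of aligned positions, and reads that fit both copies may be assigned to either or to neither. In KO against WT the log2 fold changes were 2.16 (SE 0.68, adjusted p = 0.183 by edgeR) for SNORD14D, 0.75 (SE 0.40, adjusted p = 0.398 by edgeR) for SNORD14C and 1.19 (SE 0.43, adjusted p = 0.222 by edgeR) for SNORD14E. In RPL17, SNORD58A was at 3.54 in S clones and SNORD58C at 1.89, in NOP58 SNORD11B was at 0.43 and SNORD11 at -0.39, and in RPSA SNORA62 and SNORA6 were close, at 1.23 and 1.05. SNORD14D, SNORD14E, SNORD58A, SNORD58C and SNORA6 likewise met the minimum only with the counts of the S clones, and the same limit holds.

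**Figure D5:**
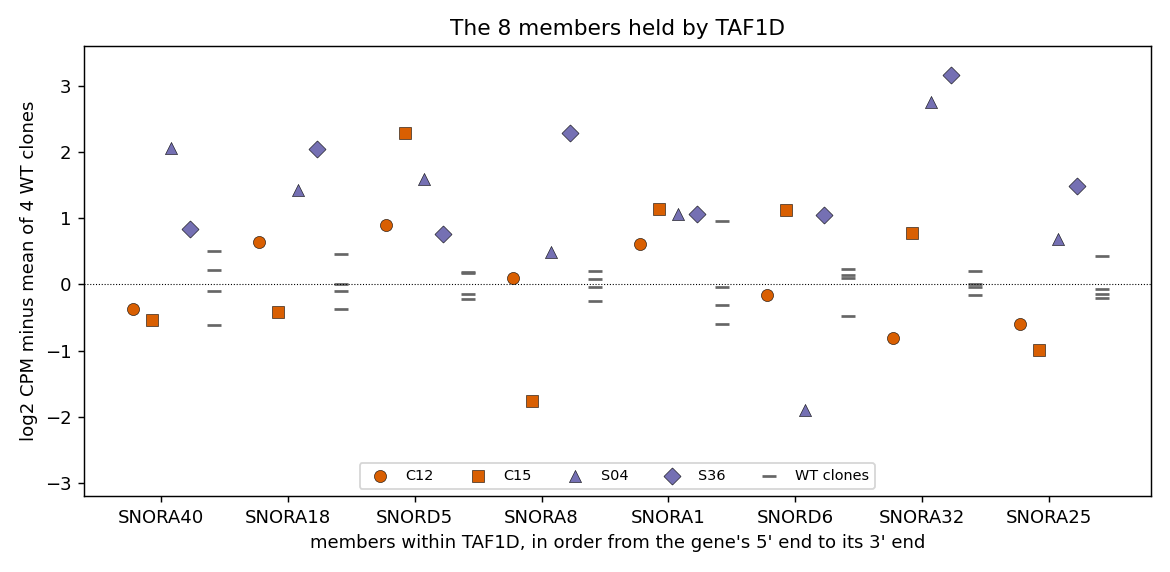
The 8 members within TAF1D are plotted in order from the 5′ to the 3′ end of the gene, with log2 CPM minus the mean of the 4 WT clones for each KO clone as a symbol and for WT clones as dashes. SNORA32 is highest in S04 (2.76) and S36 (3.17), and SNORD6 is low in S04 (-1.90) alone. SNORA1, SNORD5, SNORA18 and SNORA40 met the minimum for entry only with the counts of the S clones.

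The copies SCARNA18 and SCARNA18B are identical at 88.1% of aligned positions. In S clones against WT the log2 fold change was 2.19 (SE 0.39, adjusted p = 0.0108 by edgeR) for SCARNA18 and -0.14 (SE 0.33, adjusted p = 0.809 by edgeR) for SCARNA18B, and the difference between the copies was not tested. Their hosts TMEM167A, at 0.20 (SE 0.13, adjusted p = 0.330 by edgeR), and UCHL5, at 0.04 (SE 0.17, adjusted p = 0.913 by edgeR), did not pass the test. The other copies among the members were less alike, at 65.3% for SNORD11 and SNORD11B, 77.1% for SNORA80A and SNORA80E, 79.1% for SNORD58A and SNORD58C and 75.3% to 81.9% among SNORD14 copies.

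Members differed by what else is annotated over them. In GENCODE, 42 tested members overlap an exon of another gene, in all but SNORD13 and SNORA72 an exon on the same strand in a further transcript of the host. Their median log2 fold change in KO clones was 1.13 with 41 of 42 above 0. The 25 tested members without such overlap had a median of 0.37 with 18 above 0. In the SNORD class the medians were 1.40 over 23 members with overlap, all 23 above 0, and 0.04 over 10 without, of which 5 were above 0. In the SNORA class they were 1.07 over 18 with overlap and 0.90 over 9 without. In S clones against WT, 22 of the 42 and 7 of the 25 were called (7.17% of genes). Some of these members met the minimum for entry only with the counts of the S clones. In the SNORD class they were SNORD55, SNORD45A, SNORD21, SNORD54, SNORD5, SNORD14D, SNORD8, SNORD42A, SNORD58C and SNORD56 with overlap, and SNORD14E and SNORD13E without. The differences by overlap may thus follow in part from the choice of members, and the split without such members was not tested. Where a host transcript covers the small RNA, an unspliced or alternative host RNA and the small RNA cannot be told apart in gene counts, and what reads over both were given to was not tested. SNORD26, SNORD8, SNORA32 and SNORA61 belong to the first kind; SNORA12, SNORA33, SNORA23, SNORD104 and SCARNA18 to the second. Against the fold change, Spearman's rho was -0.06 for length and 0.06 for GC content over 67 members, given as a description.

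Of the genes for proteins that carry, assemble or process these RNAs, 45 were tested and 0 called in KO against WT (0.316% of genes). In S clones against WT 3 of the 45 (6.67%) were called higher and 7 (15.6%) lower, beside 7.17% and 7.36% of all genes. Of 4 box C/D core proteins, all tested, 0 were called in KO against WT and all 4 had fold changes below 0, with a median of -0.28. NOP58, a core protein that itself hosts SNORD11 and SNORD11B, was at 216 CPM (C12), 189.8 (C15), 97.2 (S04) and 105 (S36), against 235 to 279 CPM in WT clones. It was higher in C than in S clones, at 1.00 (SE 0.16, adjusted p = 0.0490 by edgeR), and fell in S clones against WT, at -1.33 (SE 0.13, adjusted p = 0.00165 by edgeR). The sign is opposite to that of most SNORD members in S clones. Of 4 H/ACA core proteins 3 were tested and 0 called, with a median of 0.01, and DKC1, the pseudouridine synthase, was at 0.01 (SE 0.18, adjusted p = 0.986 by edgeR). Of 12 assembly factors 0 were called in KO against WT, with 0.90 (SE 0.27, adjusted p = 0.169 by edgeR) for RUVBL1, an ATPase of the assembly machinery, and 1.56 (SE 0.46, adjusted p = 0.165 by edgeR) for ZNHIT3. In S clones 2 of the 12 rose (7.17% of all genes), RUVBL1 by 1.32 and ZNHIT3 by 2.0, and 3 fell (7.36% of all genes). Of 11 Cajal body genes 10 were tested and 0 called in KO against WT, and COIL, the coilin gene, was at -0.49 (SE 0.17, adjusted p = 0.204 by edgeR). In S clones 1 of the 10 was called higher (7.17% of all genes) and 1, COIL, lower (7.36% of all genes). COIL fell by 0.74 on the log2 scale there, and the median over the 10 was 0.14. Of 16 genes for trimming, debranching and decay 0 were called in KO against WT, with a median of -0.02, and 2 fell in S clones.

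Several other RNAs that end without a poly(A) tail were called higher in S clones. RMRP, the RNA of a ribonuclease, was at 1.39 CPM (C12), 1.21 (C15), 6.21 (S04) and 5.19 (S36), against 0.691 to 1.21 CPM in WT clones, and RN7SL1, the RNA of the signal recognition particle, at 2.66 CPM (C12), 3.22 (C15), 9.22 (S04) and 6.10 (S36), against 1.68 to 3.40 CPM in WT clones. Of 13 such RNAs listed, 4 were tested, all 4 with fold changes above 0 and 0 called in KO against WT, 3 were called higher in S clones (7.17% of all genes), and 8, TERC among them, were at 0 in all clones. Of 1831 rows of spliceosomal RNAs and their copies 30 were tested in KO against WT, 22 with fold changes above 0 and 8 below, with a median of 0.31, and 0 were called, while 9 of 44 were called higher in S clones (7.17% of all genes). RNU4ATAC, an RNA of the minor spliceosome, was at 278 CPM (C12), 623 (C15), 1172 (S04) and 1501 (S36), against 185 to 330 CPM in WT clones. Of 40 tested replication-dependent histone genes, whose messages also lack the tail, 38 had fold changes above 0 with a median of 1.42, 0 were called in KO against WT and 39 of 51 were called higher in S clones (7.17% of all genes). Their median log2 CPM minus the WT mean was -0.07 (C12), 0.53 (C15), 1.75 (S04) and 1.99 (S36). MT-RNR1, a mitochondrial ribosomal RNA, took 1.67% (C12), 2.38% (C15), 4.51% (S04) and 5.52% (S36) of counts, against 1.25% to 2.02% in WT clones. Whether libraries differ in how much RNA without a tail they took up is not given in the labels, and its part in the results was not tested.

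Medians over whole chromosomes are given beside these values. Chromosome 11, which holds 16 tested members, had a median log2 CPM minus the WT mean of -0.02 to 0.03 in the KO clones over 679 genes. Chromosome 10, with SNORA12, was at 0.28 in S36 and 0.03 in S04, and chromosome 14, with SNORD8, at -0.17 in S36 and -0.01 in S04. Chromosome 2, with SNORD89, SNORD11 and SNORD11B, was at -0.44 to -0.23 in the KO clones.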

How the data were processed

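Raw counts per gene symbol of 8 RPMI-8402 clones had been deposited by the authors in 1 table, which was used as it stands. Libraries came from column-purified total RNA by Illumina's standard procedure, per the labels' protocols. The submitters' processing notes name hg38 and the tools FastQC, TopHat2, SAMtools and Subread. Not given in the sources used here are their versions and roles, the annotation, the strand setting and any selection of RNA by poly(A) tail or size. Fragments as short as these RNAs may be lost in RNA preparation, so levels between members were not compared per length.

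Counts were filtered with filterByExpr (14243 genes), scaled with TMM factors and tested with the two-sided quasi-likelihood test of edgeR 4.0.16 in R 4.3.3, with p-values adjusted by Benjamini-Hochberg over every gene tested and a threshold of 0.05. The KO and WT comparison had its own fit, and C and S clones were compared with WT clones as a further group. The edgeR test gives no SE. Each SE printed with it is the absolute log2 fold change divided by the square root of the test's F statistic. Log2 CPM per clone used a prior count of 2. Alternatives used DESeq2 1.42.0, limma-voom (limma 3.58.1), other scalings and filters, left out each clone, or took the C or the S clones alone. A filter at 80 counts, plain library totals and a minimum for entry over the 6 clones other than S04 and S36 were added after seeing the data. Positions, hosts and sequences came from GENCODE 29, with older symbols matched through a table of gene names. The test was checked on simulated counts with planted changes. Within the KO group and within the WT group, no pair of clones had counts alike enough to be copies of 1 library. Pairs of a KO and a WT clone were not compared.

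The members and the lists of other genes were chosen with earlier results of these data known. Members were named by rule: those called, in each class the 4 with the lowest p, the 3 with the highest mean CPM and the 2 with the largest change each way, those next to the minimum, and those of known role, which gave 31. Others, such as SNORD17, SNORD58A, SNORA16A, SNORD43 and the RNAs of shared hosts, were named after their values were seen. Since no culture or run date is given for the clones, a p-value reflects the spread from clone to clone, and some of that may be technical.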

Additional observations from a re-analysis of the deposited data

Results flagged for a closer look

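For 4 members the C and S clones differed from each other past the threshold of the edgeR test. The log2 differences, C minus S, were -2.46 for SNORA12, -2.67 for SNORD26, -3.37 for SNORA32 and -3.99 for SNORD8. SNORD8 met the minimum for entry only with the counts of the S clones, so its difference follows in part from the choice of members. In each, both S clones stood above the other 6 clones. Of 62 groups of 4 clones that were examined for a clone far from the others, 0 had one, where chance alone gives about 3.1. A group of 4 leaves little room to flag a clone, so this does not show that the clones agree.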

How the results depend on the processing

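No paired analysis was possible because the clone numbers pair no KO clone with a WT clone. The count of members called in KO against WT (0) was 12 with DESeq2 (3.66% of all genes), 16 with no filter on low counts (1.85%), 31 with S clones only (14.5%), and 0 to 17 when 1 clone was left out. The count in C against S (4) was 2 with RLE size factors (0.0983%), 12 with DESeq2 (4.57%), 18 with no filter (2.43%), 2 with a filter at 80 summed counts (0.0996%), 0 without the WT clones, where 0 of all genes were called, and 0 to 6 when 1 clone was left out. With the minimum for entry taken over the 6 clones other than S04 and S36, 49 members remained, with 0 calls in KO against WT and 3 in C against S, and the SNORD median log2 fold change was 0.57, against 0.89 over all SNORD members tested. With 1 clone left out, class medians of the log2 fold change ran from 0.69 to 1.19 for SNORA, 0.69 to 1.11 for SNORD and 0.25 to 0.69 for SCARNA, and the share ratios from 1.71 to 2.66, 2.17 to 3.42 and 1.10 to 1.45 in the same order. With C clones only the medians were 0.0069 for SNORA and 0.13 for SNORD. The SNORD median was 1.42 after thinning to the shallowest library, where 16 of 72 members could be tested, and 0.040 over members that overlap no exon of another gene. Signs turned with C clones only for SNORA12 (-0.27), SNORA32 (-0.34), SNORD8 (-0.23), SNORD104 (0.031), SCARNA18 (-0.068), SCARNA20 (-0.22), SCARNA12 (-0.47), SCARNA7 (-0.78), SNORD3A (-0.070) and SNORD14C (-0.048). With S clones only they turned for SNORA72 (0.27), SNORA73B (0.51), SCARNA9 (-0.51) and SCARNA18B (-0.14). Limma-voom turned SCARNA9 (-0.10), SCARNA18B (-0.029) and SCARNA7 (-0.34), plain library totals SNORA73B (0.012), no filter SCARNA7 (-0.038), and library sizes without mitochondrial, histone and member genes SCARNA7 (-0.0013). With 1 clone left out, ranges that crossed 0 were -0.34 to 0.13 for SNORA72, -1.22 to 0.25 for SNORA73B, -0.33 to 0.41 for SCARNA9, -0.11 to 0.35 for SCARNA18B and -0.18 to 0.40 for SCARNA7. Within them the sign turned for SNORA72 without C12 (0.13) or WT30 (0.094), SNORA73B without C12 (0.25), C15 (0.073), S36 (0.095) or WT28 (0.15), SCARNA9 (-0.33) and SCARNA18B (-0.11) without C15, and SCARNA7 without C15 (-0.14), S04 (-0.14), S36 (-0.18), WT10 (-0.021) or WT30 (-0.090). The causes were not tested. Over the named members, 486 of the other values kept direction and side of the threshold, 50 passed it newly and 23 no longer passed it. Counts under 20 per member in C15 limit what this clone can show.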
